A study of Mus musculus with 4 samples.

Results

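Distal convoluted tubule (DCT) cells were taken as cluster 5 of the 23 clusters that the authors made from kidney nuclei, which gives 4 of the 92 columns of cluster averages, 1 for each mouse. All 4 mice were males of mixed strain carrying TRE-hKLF6, a human KLF6 gene that is transcribed only when the activator rtTA and doxycycline are present. The control mouse and the control mouse with AAI carried TRE-hKLF6 alone, and the hKLF6 OE mouse and the hKLF6 OE mouse with AAI also carried CAG-rtTA, which drives overexpression in all tissues rather than in the tubule alone. AAI is aristolochic acid I, a plant nephrotoxin that forms DNA adducts. According to the methods all mice ate doxycycline for a week, AAI was given as a single injection, kidneys were taken the day after it, and the 4 libraries were made together in 1 batch. With 1 mouse per condition, AAI or genotype and the individual mouse cannot be told apart.

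The DCT is the short segment between the thick ascending limb and the connecting tubule. It takes up sodium and chloride through the thiazide-sensitive cotransporter NCC, encoded by Slc12a3, whose activity is set by the WNK kinases, the kinase SPAK and the KLHL3-CUL3 ubiquitin ligase. It is also where the kidney makes its final adjustment of magnesium through TRPM6 channels, and its late part shares calcium transport and sodium channel genes with the connecting tubule.

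Expression values are mean counts per 10000 per nucleus, and sets of 4 values are in the order control, control with AAI, hKLF6 OE and hKLF6 OE with AAI. Slc12a3 was 176, 162, 177 and 154 in DCT, and 49.6 in the mean of the next highest cluster, DCT_CNT. The authors named that cluster for both DCT and connecting tubule (CNT). Trpm6 was 21.6, 19.1, 15.4 and 17, against 6.23 in DCT_CNT. Both markers were highest in DCT of all 23 clusters in every mouse, as the label has it. The table has no row for the human transgene, and mouse Klf6 was 0.13, 0.33, 0.16 and 0.31, so the overexpression itself could not be checked in these cells.

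Of 5300 genes that reached 0.5 in DCT or in the mean of the other clusters in any mouse, 479 (9.04%) were at least 0.2 on the log2(value + 1) scale above the mean of the other 22 clusters in every mouse, and 26 (0.491%) were as far above the highest other cluster. Because the clusters were made from the same values, these are descriptions of DCT and not tests. Grouped by role, Slc12a3, Wnk1, Wnk4 and Klhl3 encode the cotransporter and its control. Trpm6, its close relative Trpm7 and Cnnm2, a magnesium transport gene of the basolateral membrane, belong to magnesium handling. Sall3 and Lhx1 encode transcription factors, Ptgfr a prostaglandin receptor, Sgms2 a sphingomyelin synthase and Abca13 a large lipid transporter. The next highest cluster was DCT_CNT for 11 of the 26 genes and CNT for 9.

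**Figure D1:**
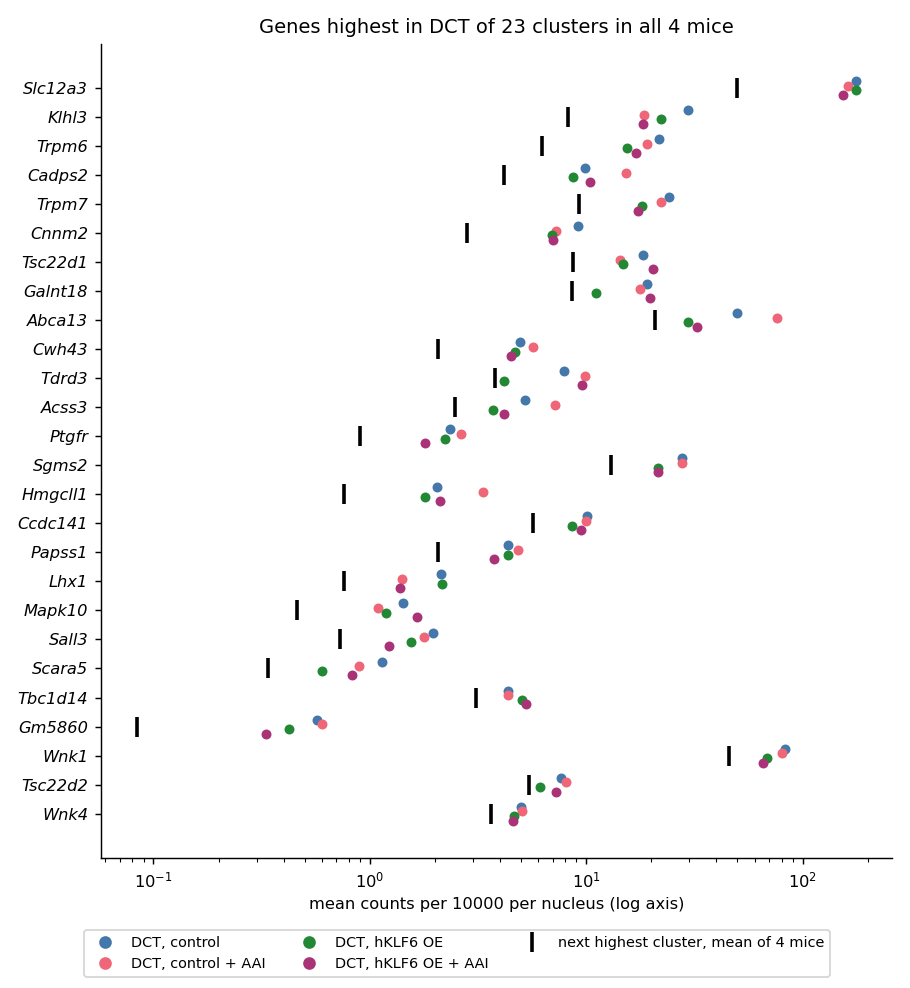
Mean counts per 10000 per nucleus (log axis) of the 26 genes highest in DCT of the 23 clusters, with 1 coloured point for each mouse and a black bar for the next highest cluster as the mean of the 4 mice. On this axis Gm5860, a noncoding RNA of low level, lies furthest above its bar (0.084), while Wnk4 and Tsc22d2 lie close to theirs. Slc12a3 (bar at 49.6) is furthest above the highest other cluster on the log2(value + 1) scale.

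Wnk1 was 82.7, 80.1, 68.4 and 65.4, against 45.7 in CNT. Its kidney form lacks the kinase domain and starts inside the gene, and a gene total cannot separate it from the full-length kinase. Wnk4 was far lower at 5.02, 5.07, 4.64 and 4.61, against 3.63 in LH-AL-1, a cluster of the ascending limb. Klhl3, the substrate adaptor that brings WNK kinases to degradation, was 29.6, 18.5, 22.2 and 18.3, against 8.21 in DCT_CNT. Trpm7 was 24.2, 22.3, 18.2 and 17.3, against 9.31 in DCT_CNT. Cnnm2 was 9.14, 7.28, 6.96 and 7.05, against 2.82 in DCT_CNT.

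The bases just before the start sites of 4 of these genes are shown because the cotransporter, the magnesium channel and both WNK kinases share 1 short element there. The sequences are the 250 bases upstream of the RefSeq start in GRCm38.p6, 5′ to 3′ on the strand of the gene, and capitals mark GCCNNNGGC, the palindrome bound by AP-2 factors. Slc12a3 is at chr8:94328958-94329207 on the plus strand, Trpm6 at chr19:18749480-18749729 on the plus strand, Wnk4 at chr11:101260317-101260566 on the plus strand and Wnk1 at chr6:120038656-120038905 on the minus strand. The Wnk1 bases lie at the 5′ end of the gene and not at the internal start of its kidney form. Its match therefore says nothing of that internal start.
Slc12a3: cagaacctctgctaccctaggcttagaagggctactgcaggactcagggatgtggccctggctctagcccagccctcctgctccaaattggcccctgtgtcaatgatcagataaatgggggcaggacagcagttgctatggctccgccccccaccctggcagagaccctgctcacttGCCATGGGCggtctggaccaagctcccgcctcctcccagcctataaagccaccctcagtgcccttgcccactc
Trpm6: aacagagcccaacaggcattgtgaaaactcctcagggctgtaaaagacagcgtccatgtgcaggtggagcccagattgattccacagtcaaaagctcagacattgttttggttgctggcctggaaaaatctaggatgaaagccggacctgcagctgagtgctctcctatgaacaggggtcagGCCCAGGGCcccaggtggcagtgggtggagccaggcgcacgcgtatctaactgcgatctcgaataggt
Wnk4: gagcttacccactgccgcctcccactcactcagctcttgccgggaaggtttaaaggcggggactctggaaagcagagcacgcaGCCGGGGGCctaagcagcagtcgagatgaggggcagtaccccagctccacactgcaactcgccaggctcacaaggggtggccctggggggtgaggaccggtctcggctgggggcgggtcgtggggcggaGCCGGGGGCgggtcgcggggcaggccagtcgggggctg
Wnk1: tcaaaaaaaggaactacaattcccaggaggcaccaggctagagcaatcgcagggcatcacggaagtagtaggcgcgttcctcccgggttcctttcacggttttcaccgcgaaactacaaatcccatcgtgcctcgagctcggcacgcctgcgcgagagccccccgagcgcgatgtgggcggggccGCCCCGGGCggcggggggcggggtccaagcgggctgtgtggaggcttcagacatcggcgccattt
The capitals begin 73 bases before the start of Slc12a3, 68 before that of Trpm6, 167 and 38 before that of Wnk4, and 65 before that of Wnk1. Of the 26 identity genes, 21 had a promoter in the RefSeq table, and 7 of these (33.3%) held GCCNNNGGC, the others being Abca13, Sgms2 and Tsc22d1. Over all 27025 genes of the table the share was 15.4%. The element reads the same on both strands, is rich in G and C, and was 1 of 4 motifs searched on both strands. AAGGTCA, the half-site of estrogen-related receptors, was held by 1 of the 21 genes (4.76%) and by 4.70% of all genes. The HNF1 site was held by 0 of 21 and 0.074% of all genes, and the p53 half-site by 4 of 21 (19%) and 8.20%. None of the 4 printed promoters held these other 3 motifs, so the capitals overlap no other motif searched. A match describes letters and not binding.

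The AP-2 family member best known from the DCT, Tfap2b, was 2.30, 3.41, 2.14 and 2.65, which ranked DCT the fifth of 23 clusters. Sall3 was 1.97, 1.79, 1.55 and 1.23 and Emx1 1.72, 1.02, 1.58 and 1.78, and DCT ranked first for both. Mecom, a zinc finger factor of the distal nephron, was 44.4, 53.7, 39.2 and 50.5 and also ranked first by the mean of the mice. Esrrg, a nuclear receptor that drives mitochondrial genes, was high at 47.5, 41.9, 42.5 and 42.1 but ranked seventh.

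Genes of the late DCT were shared with CNT. The sodium-calcium exchanger Slc8a1 was 206, 191, 157 and 189 in DCT and 323 in CNT. Calb1, the cytosolic calcium buffer calbindin, was 17.8, 10.2, 11.5 and 13 in DCT and 13.7 in CNT. For both genes DCT ranked the second of 23 clusters. Of the apical calcium channels, neither Trpv5 nor Trpv6 reached 0.5 in any mouse. Vdr, the vitamin D receptor, was 8.22, 7.65, 7.86 and 9.39, and Kl, which encodes the FGF23 coreceptor Klotho, was 7.32, 5.58, 5.18 and 5.59; both ranked second behind CNT.

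Over 4326 genes that passed the minimum in DCT, the profile closest to DCT was that of CNT, with Pearson's r across genes on the log2 scale from 0.886 to 0.913 in the 4 mice. It was followed by LH-AL-2 with r from 0.842 to 0.858 and DCT_CNT with 0.823 to 0.846. Genes are not independent replicates, and columns of 1 mouse share a library. Genes were also searched in the other direction where the median of the other clusters reached 0.5 in any mouse. Of these, 1 was lowest in DCT of all clusters in every mouse. This was Nfia, a CCAAT-binding transcription factor, at 1.26, 1.18, 1.10 and 1.14 in DCT and 19.2 in PT-S3-2.

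Markers of other cell types were read in the same columns. The 14 markers of proximal tubule summed to 103, 72.0, 130 and 54.4 in DCT and to between 181 and 253 across mice in the averaged values of the 5 uninjured proximal tubule (PT) clusters. Most of it was Kap, an androgen-regulated transcript of the proximal tubule, at 68.0, 48.1, 92.5 and 34.8. The membrane markers were low, with Slc5a12 at 2.14, 2.30, 2.20 and 2.12 and Lrp2 at 2.81, 1.90, 2.36 and 2.03. The 8 thick ascending limb markers summed to between 12.9 and 17.4, mostly Umod. The 8 markers of connecting tubule and principal cells reached at most 2.97, the 8 of intercalated cells 0.85, the 5 of endothelium 0.66, the 4 of podocytes 0.80, the 5 of mesangial cells and fibroblasts 0.11 and the 5 of immune cells 0.42. Thus the DCT columns of both mice without AAI held more proximal tubule transcript than those of both mice with AAI.

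Other facts of the columns also differed between mice. Mitochondrially encoded genes took 1.93%, 1.30%, 2.65% and 1.07% of the DCT total. Malat1, a nuclear noncoding RNA, took 13.9%, 11.9%, 17.8% and 15.7%. Genes at 0 were 27.5%, 27.8%, 28.1% and 25.4% of all genes.

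The first comparison was of AAI with no AAI within a genotype, which asks how DCT cells differed a day after the toxin. In control mice 1218 of 4056 genes (30%) and in hKLF6 OE mice 1704 of 4017 (42.4%) differed in either direction. In control mice 730 of 4056 genes were higher with AAI (18%) and 488 were lower (12%). In hKLF6 OE mice 1054 of 4017 were higher (26.2%) and 650 lower (16.2%). The excess of higher genes depended on the scale. After centring on the median the counts were 563 higher and 640 lower in control mice and 596 and 890 in hKLF6 OE mice, and after rescaling without Malat1 and the mitochondrially encoded genes they were 698 and 726, and 999 and 936.

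Both genotypes together gave 341 genes higher with AAI (9.1% of 3747) and 181 lower (4.83%), while 63 differed in opposite directions (1.68%). After centring, 194 were higher and 269 lower. The AAI differences in the control and the hKLF6 OE mice share no mouse, and across the 3747 genes they had a Pearson's r of 0.47 and a Spearman's rank correlation of 0.42, as a description over genes that are not independent.

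**Figure D2:**
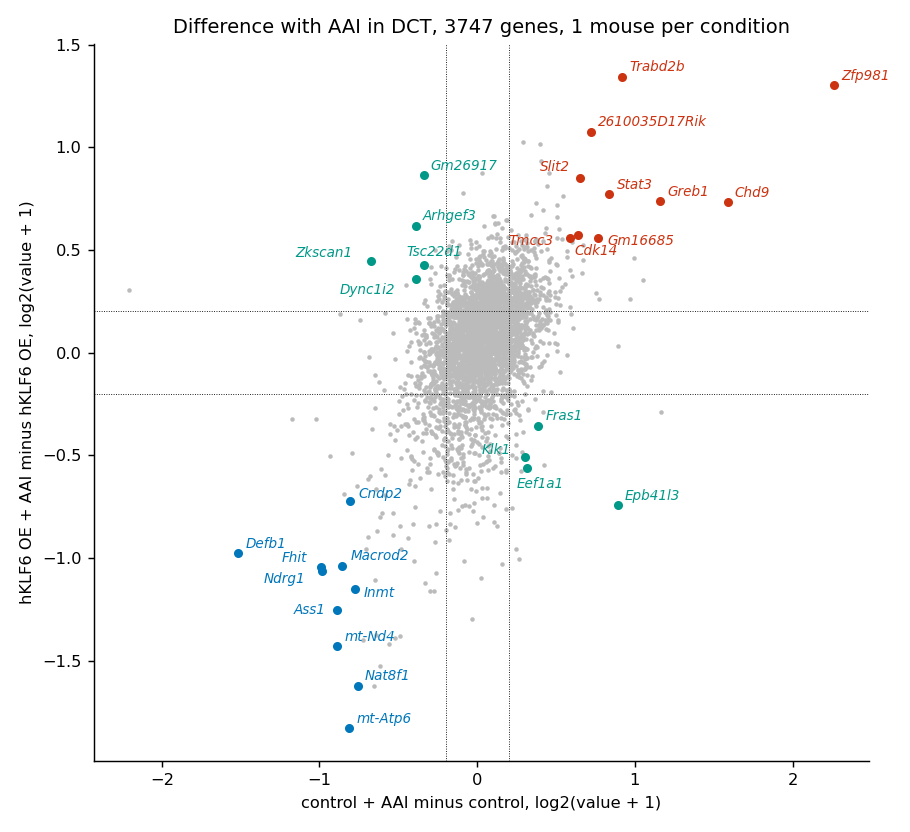
Difference with AAI in DCT on the log2(value + 1) scale in control mice (horizontal axis) and hKLF6 OE mice (vertical axis), with 1 grey point for each of 3747 genes and dotted lines at the threshold of 0.2. Named genes are those furthest higher with AAI in both genotypes (red), furthest lower (blue) and opposite (green). Zfp981, Chd9, Defb1 and mt-Atp6 lie far from the origin.

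Among the genes furthest higher with AAI were a signalling factor, a Wnt regulator and an axon guidance ligand. Stat3, the transcription factor of interleukin-6 family signalling, was 2.02, 4.40, 1.75 and 3.69. The difference was 0.84 in control and 0.77 in hKLF6 OE mice, against a median of 0.47 and 0.54 in the other 22 clusters. Trabd2b, a membrane protease that inactivates Wnt proteins, was 11.6, 22.9, 4.77 and 13.7, a difference of 0.92 and 1.34. That was larger than in any of the other 22 clusters in both genotypes, although CNT came close with 0.85 in control mice and PT-S3-1 with 1.23 in hKLF6 OE mice. Slit2, a secreted guidance ligand, was 14, 22.6, 11.38 and 21.3, a difference of 0.65 and 0.85.

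Greb1, known as an estrogen-induced gene, was 1.41, 4.39, 1.63 and 3.39. It differed by 1.16 and 0.74 in DCT, while the median of the other clusters was 0.06 and 0.11. In CNT it differed by 1.34 and 1.23 and in DCT_CNT by 0.90 and 0.62, so these neighbours were higher too, while LH-AL-1 differed by -0.03 and 0.14. Cdk14, a cyclin-dependent kinase, was 5.09, 8.50, 5.94 and 9.33, with a median difference of 0.03 and 0.23 in the other clusters against 0.64 and 0.57 in DCT.

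Chd9, a chromatin remodeller, was as much higher in much of the kidney. It was 1.57, 6.73, 2.24 and 4.38 in DCT. Its difference of 1.59 and 0.73 lay near the median of the other clusters, 1.82 and 0.75. The noncoding RNA 2610035D17Rik was 0.01, 0.67, 0.01 and 1.14, close to absent in both mice without AAI. Zfp981, a zinc finger gene of a cluster of near-identical copies on chromosome 4 whose reads may be split between them, was listed at 0 in the control mouse and was 3.79, 0.02 and 1.52 in the others. It passed the minimum only through the mice with AAI, as did 2610035D17Rik. Tmcc3 was 4.52, 7.31, 4.91 and 7.71 and Gm16685, an antisense RNA, 2.47, 4.91, 2.26 and 3.79.

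Among the genes lower with AAI, Defb1 was set apart from most of the kidney. Defb1, the epithelial antimicrobial peptide beta-defensin 1, was 12.5, 3.73, 9.15 and 4.16, so both AAI mice were lower than both others. The difference was -1.51 in control and -0.98 in hKLF6 OE mice. In control mice no other cluster was lower by as much, although CNT (-1.24) and DCT_CNT (-1.21) were near it. In hKLF6 OE mice 2 of the 22 other clusters were lower by at least as much, and the median of the others was -0.17 and -0.25. Macrod2, which removes ADP-ribose from proteins, was 3.74, 1.62, 3.42 and 1.15, and in the hKLF6 OE mice its difference of -1.04 was further below 0 than in any other cluster. Both Macrod2 and Fhit, a fragile-site gene at 14.6, 6.87, 13 and 5.69, span over a megabase of genome.

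Other named genes lower with AAI were not highest in DCT. Ndrg1, a stress-responsive gene, was 4.78, 1.91, 4.76 and 1.80, with a difference of -0.99 and -1.04 in DCT and a median of -1.07 and -1.25 elsewhere. Ass1, an arginine synthesis enzyme of the proximal tubule, was 2.06, 0.65, 2.32 and 0.39. Inmt, Nat8f1 and Cndp2 were likewise lower in both AAI mice, and DCT ranked 18th, 21st and 22nd of the 23 clusters for them. For Ass1, DCT ranked the lowest. The same mice had lower levels of the proximal tubule markers. Of these, 9 of 14 were lower with AAI in control mice (median -0.34), beside 12% of all genes. In hKLF6 OE mice 10 of 14 were lower (median -0.61), beside 16.2% of all genes. The part of transcript from other cells in these differences was not tested.

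The mitochondrially encoded genes, 13 in all, differed in 1 direction. Of 11 past the minimum, 8 were lower with AAI in control mice and 11 in hKLF6 OE mice, with a median of -0.39 and -0.92. The shares lower over all genes were 12% and 16.2%. mt-Atp6, a subunit of the ATP synthase, was 29.3, 16.2, 42.5 and 11.24, and mt-Nd4, a subunit of complex I, 13.2, 6.65, 18.4 and 6.21. In both, the mice with AAI were below the mice without it. The median over this group was below 0 in 21 of the other 22 clusters in control mice and in 22 of 22 in hKLF6 OE mice.

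Energy and protein synthesis genes were highest in the hKLF6 OE mouse without AAI, which enters both the AAI comparison of its genotype and the genotype comparison without AAI. Nuclear genes of oxidative phosphorylation were lower with AAI in 46 of 59 in hKLF6 OE mice, beside 16.2% of all genes. In control mice 12 of 51 were lower, beside 12% of all genes. The medians were -0.33 in hKLF6 OE and -0.09 in control mice. Cytosolic ribosomal proteins were lower in 35 of 39 in hKLF6 OE mice (median -0.42). In control mice 4 of 28 ribosomal genes were higher and 1 lower (median 0.07), beside 18% and 12% of all genes. Their summed level was 27.5, 29.9, 44.4 and 22.9, so the hKLF6 OE mouse without AAI was the highest of the 4. Of 9 heat shock genes, 7 were lower with AAI in hKLF6 OE mice. Without AAI 5 of 9 were higher in hKLF6 OE than in control, beside 10.1% of all genes. Hspa8, the constitutive HSP70 chaperone, was 2.89, 2.09, 4.73 and 1.63. Ribosomal proteins were lower with AAI in hKLF6 OE mice in 22 of the 22 other clusters by their median, so DCT did not stand apart. Many ribosomal protein genes have processed copies elsewhere in the genome that can share their reads.

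**Figure D3:**
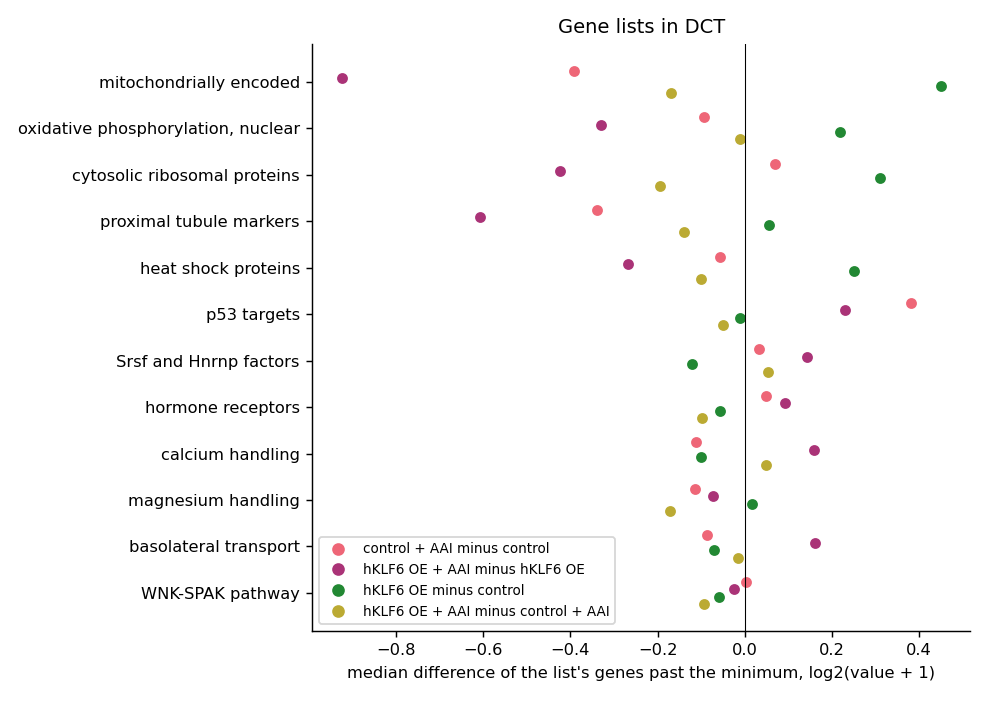
Median difference on the log2(value + 1) scale of the members of 12 gene lists that passed the minimum in DCT, with 1 point for each of the 4 comparisons. Mitochondrially encoded genes lie at -0.92 with AAI in hKLF6 OE mice and at 0.45 for hKLF6 OE against control without AAI, which share the hKLF6 OE mouse without AAI. The transport lists lie between -0.17 (magnesium handling, hKLF6 OE against control with AAI) and 0.16 (basolateral transport and calcium handling, AAI in hKLF6 OE mice).

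p53 targets, which answer DNA damage, were higher in 6 of 8 with AAI in control mice (18% of all genes were) and in 4 of 7 in hKLF6 OE mice (26.2% of all genes), and 0 were lower in either. Of the 28 listed, 19 never reached 0.5, 4 reached it in a mouse without AAI, and 5 reached it only in mice with AAI, so that those 5 could only be higher and the counts rest in part on the minimum. The median over the list in DCT was 0.38 in control and 0.23 in hKLF6 OE mice. In the other clusters it was above 0 in 22 of 22 in both genotypes. It was at or above that of DCT in 17 of 22 in control and 21 of 22 in hKLF6 OE mice. Mdm2, the ubiquitin ligase that holds p53 in check, was 1.23, 1.98, 0.81 and 1.93. Both mice with AAI were above both without it. Ccng1, a cyclin G gene, was 0.35, 0.93, 0.31 and 0.99 and Trp53inp1 0.42, 1.15, 0.48 and 0.92, and both belong to the 5 that passed only in mice with AAI. Cdkn1a, the p21 inhibitor, was below 0.5 in all 4 mice. Of 20 targets in the promoter table, 8 (40%) held a p53 half-site in the 250 bases before the start, Mdm2, Ccng1, Polk and Cdkn1a among them, beside 8.20% of all genes.

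Among repair genes, Polk, a translesion polymerase, was 0.31, 0.57, 0.48 and 0.73 and was higher with AAI in both genotypes. Polk reached 0.5 only in the mice with AAI, so it could only be higher. Rev3l was 3.02, 3.27, 2.30 and 3.62. Immediate early genes were mostly below the minimum. Of 2 past it in both genotypes, Egr1 was higher with AAI in both and Ier3 lower in both. Egr1 was 0.13, 0.65, 0.08 and 0.83, and it reached 0.5 only in the mice with AAI. Tubular injury markers were low in DCT. Of 24 measured, Spp1, the secreted phosphoprotein osteopontin, and Clu reached 0.5, and Havcr1 and Lcn2 did not. Spp1 was 2.38, 4.01, 3.91 and 3.86, lowest in the control mouse without AAI. Polr2a, the largest subunit of RNA polymerase II, was 0.94, 1.74, 1.17 and 1.23, a difference of 0.50 in control and 0.04 in hKLF6 OE mice. Fkbp5, a glucocorticoid-induced gene, was 2.86, 4.33, 2.85 and 4.31, a difference of 0.47 and 0.46.

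The genes that set DCT apart differed with AAI in both directions. Of the 26 identity genes, 5 were higher and 5 lower with AAI in control mice and 6 were higher and 4 lower in hKLF6 OE mice. These counts stand beside 18% of all genes higher and 12% lower in control mice, and 26.2% and 16.2% in hKLF6 OE mice. After centring, 3 identity genes were higher and 6 lower in hKLF6 OE mice, and after rescaling 4 and 6. Slc12a3 differed by -0.12 in control and -0.21 in hKLF6 OE mice. Of 10 genes of the WNK-SPAK pathway past the minimum, 2 were higher and 1 lower in control mice, and 3 were higher and 2 lower in hKLF6 OE mice, shares near those of all genes. Klhl3 differed by -0.65 and -0.27, lower in both. Stk39, which encodes the kinase SPAK, was 7.83, 9.89, 6.59 and 8.11 and was higher in both, by 0.30 and 0.26. Ppp1r1a, the phosphatase inhibitor that keeps NCC phosphorylated, was 0.86, 2.85, 1.11 and 1.70, higher by 1.05 and 0.35.

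Of 7 magnesium handling genes past the minimum, 0 were higher with AAI in either genotype, 2 were lower in control mice and 3 in hKLF6 OE mice, beside 12% and 16.2% of all genes. Of 9 calcium handling genes, 3 were higher and 2 lower in control mice, beside 18% and 12% of all genes. In hKLF6 OE mice 4 were higher and 3 lower, beside 26.2% and 16.2%. Only 1 calcium gene was higher in both genotypes, and 0 were lower in both. Pvalb, the calcium buffer parvalbumin that marks the early DCT, was 1.18, 0.35, 1.25 and 0.21. Both mice with AAI were below both without it, with a difference of -0.69 and -0.90. At lower levels Pvalb was also lower with AAI in DCT_CNT (0.26 and 0.22 without AAI, 0.06 in both mice with it). The same held in CNT (0.12 and 0.16 without AAI, 0 and 0.004 with it). In LH-AL-1 it was 0.15 and 0.10 without AAI and 0 and 0.01 with it. Egf, the precursor of the growth factor that raises TRPM6 activity, was 50.7, 56.6, 67.2 and 32.4. It differed by -1.03 in hKLF6 OE mice and by 0.15 in control mice, and 2 of the other 22 clusters were lower by more in hKLF6 OE mice. Trpm6 itself differed by -0.17 and 0.13, and Slc8a1 of the calcium genes by -0.11 and 0.27.

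On the basolateral side, Kcnj16, a potassium channel subunit, was 4.93, 6.66, 4.53 and 8.17, higher with AAI by 0.37 and 0.73. Fxyd2, the gamma subunit of the sodium pump, was 10.4, 7.37, 13.4 and 6.67, a difference of -0.44 and -0.90, beside a median of -0.42 and -1.20 elsewhere. Calb1 of the calcium genes was 17.8 in the control mouse and 10.2 to 13 in the other 3, so that mouse alone was high. It differed with AAI by -0.75 in control mice and by 0.16 in hKLF6 OE mice.

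**Figure D4:**
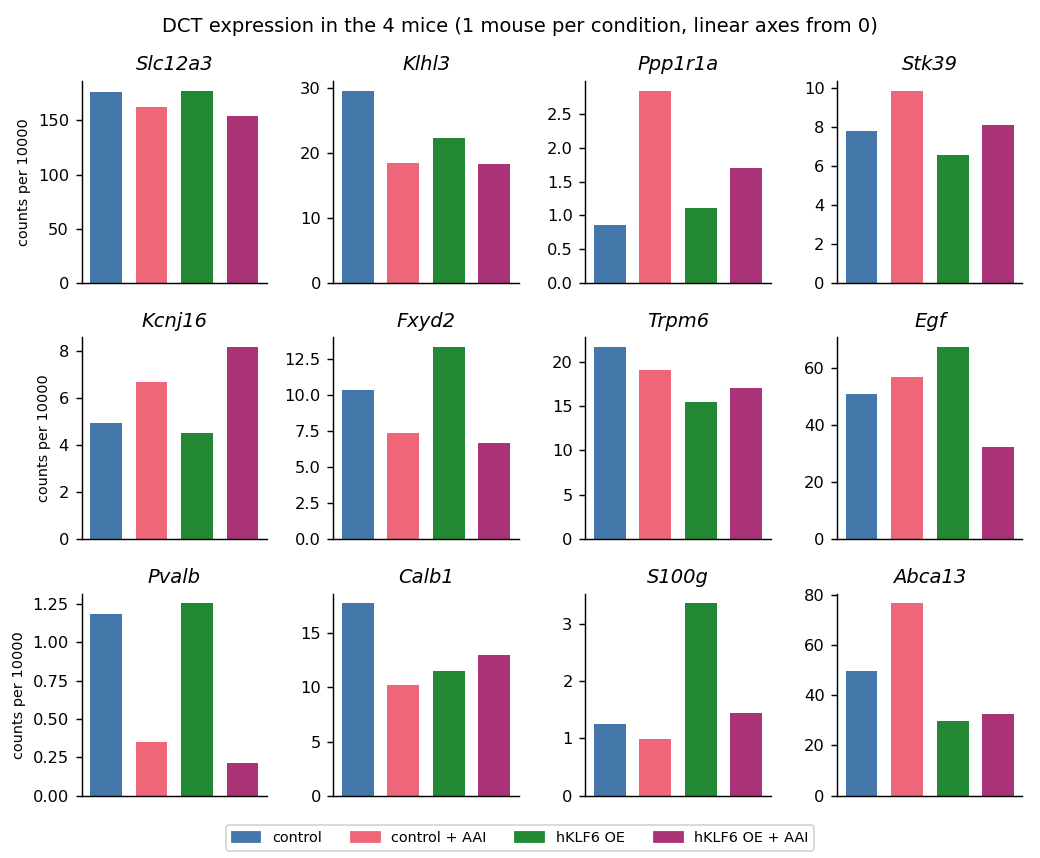
Mean counts per 10000 per nucleus in DCT for 12 transport and identity genes, with 1 bar for each mouse on a linear axis from 0. Pvalb is low in both mice with AAI, Egf is low in the hKLF6 OE mouse with AAI alone, Calb1 is highest in the control mouse without AAI, and Abca13 is low in both hKLF6 OE mice.

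The genes with the largest AAI differences of opposite sign were led by Epb41l3, a protein 4.1 gene of the membrane skeleton. It was 6.17, 12.3, 8.31 and 4.55, a difference with AAI of 0.89 in control mice and -0.74 in hKLF6 OE mice. No other cluster was lower by as much in hKLF6 OE mice. In DCT_CNT it differed by 1.09 and -0.32 and in CNT by 0.52 and -0.58, the same signs as in DCT. Arhgef3, a guanine nucleotide exchange factor, was 6.73, 4.90, 4.49 and 7.43 and went the other way.

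Gene span, the length from start to end of a gene, differed between the genes higher and lower with AAI. Of the 3747 genes, 99.3% had a span. The 340 genes with a span that were higher with AAI in both genotypes had a median of 122 kb, and 57.1% were over 100 kb. The 181 lower in both had a median of 23.5 kb, and 56.9% were under 30 kb. All 3720 genes past the minimum with a span had a median of 58.2 kb. That background is not matched to the higher genes in expression level. With a minimum of 2 the medians were 157 kb for higher, 25.5 kb for lower and 121 kb for all genes. In each of the other 22 clusters the higher genes also had the longer median, and the longest after the 122 kb of DCT was 86.8 kb, in podocytes. In InjuredPT-A the medians of higher and lower genes, 31.6 and 27.0 kb, were both below the 35.3 kb of its genes past the minimum. The authors saw this cluster and InjuredPT-B, both injured proximal tubule, nearly only after AAI. Their AAI differences are thus unlike the others, and they are among the other 22 clusters throughout. The lower genes include the mitochondrially encoded and proximal tubule transcripts above.

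Span also differed by mouse. In the genotype comparison without AAI, the genes higher in the hKLF6 OE mouse had a median of 12.4 kb and those lower 83.3 kb, the mirror of AAI in hKLF6 OE mice (96.2 kb for higher and 15.3 kb for lower), and both contain that mouse. In control mice, which do not, the genes higher with AAI had a median of 79.8 kb and those lower 39.8 kb.

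**Figure D5:**
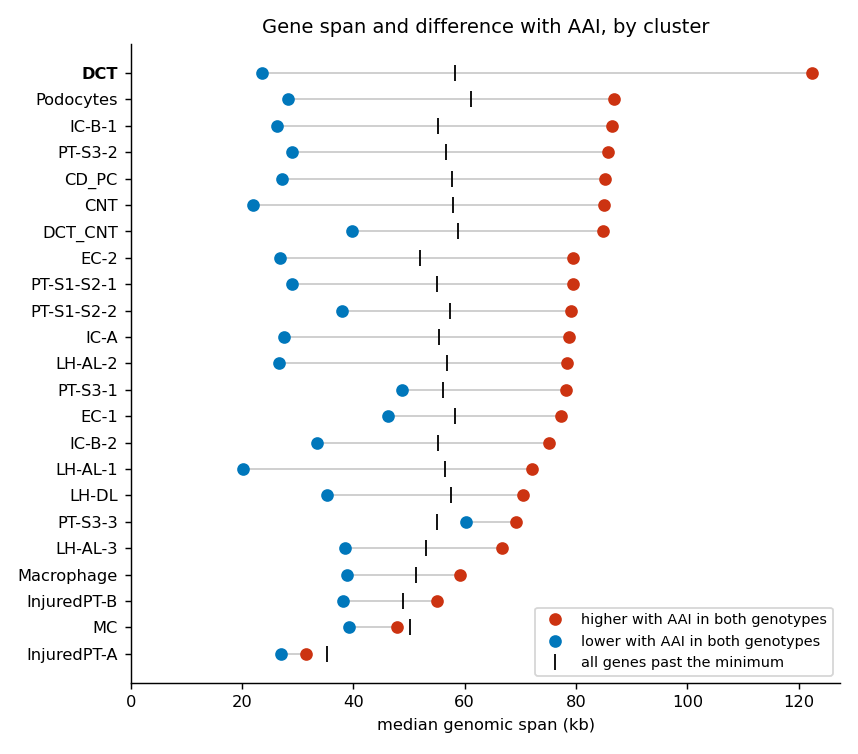
Median genomic span in kb of genes higher (red) and lower (blue) with AAI in both genotypes in each of the 23 clusters, with a bar for all genes past the minimum. DCT has the longest median for higher genes, 122 kb, and every other cluster has a longer median for higher than for lower genes.

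The second comparison was of hKLF6 OE with control, without and with AAI, which asks how the transgene mice differed before and after the toxin. Without AAI 1084 genes (26.8%) and with AAI 728 genes (18.8%) differed in either direction. Without AAI 410 of 4041 genes were higher (10.1%) and 674 lower (16.7%), and with AAI 263 of 3878 were higher (6.78%) and 465 lower (12%). After centring the counts were 583 and 401 without AAI and 300 and 400 with it, and after rescaling 720 and 544, and 498 and 429, so the direction of the excess depended on the scale. The genotype differences without and with AAI share no mouse, and their Pearson's r across 3593 genes was -0.08. In both treatments 19 genes were higher (0.529%) and 82 lower (2.28%), while 143 differed in opposite directions (3.98%). Opposite differences outnumbered shared ones at this threshold, but not at 0.5, where 3 genes were higher, 5 lower and 5 opposite.

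The identity genes were lower in the hKLF6 OE mice more often than higher. Without AAI 15 of 26 were lower and 0 higher (median -0.24, and -0.05 over all genes), and with AAI 12 were lower and 3 higher (median -0.14, and -0.01 over all genes). After rescaling, 12 were lower and 1 higher without AAI, and 12 and 4 with it. The pseudocount shrinks the differences of low genes, and the identity genes stand at higher levels than most genes, so the background percentages are not matched to them. In both treatments 6 of the 26 were lower, namely Trpm7, Abca13, Acss3, Sgms2, Sall3 and Wnk1, and 0 were higher. Trpm6 differed by -0.46 without AAI and by -0.16 with it, and Klhl3 by -0.40 and -0.01, while Slc12a3 differed by 0.01 and -0.08.

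Abca13, the lipid transporter, was lower in both hKLF6 OE mice. It was 49.8 and 76.5 in the control mice and 29.7 and 32.4 in the hKLF6 OE mice, a difference of -0.73 and -1.22. In CNT it differed by -0.56 and -1.26 and in DCT_CNT by -0.37 and -1.28. Sgms2 was 27.8 in both control mice and 21.5 and 21.6 in the hKLF6 OE mice, with no AAI difference in either genotype (0.00 on this scale).

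Gm2115 led the genes lower in hKLF6 OE under both treatments. Gm2115 was 1.92 and 1.61 in the control mice and 0.60 and 0.46 in the hKLF6 OE mice. Its difference of -0.86 and -0.84 compares with a median of -0.01 and 0.00 in the other clusters, the highest of which averaged 0.74, so that they could be lower by little. Arnt2, a partner of bHLH-PAS factors, was 6.67 and 5.98 against 4.46 and 3.76. Ryr2, the calcium release channel, was 1.47 and 2.11 against 0.56 and 0.89. Rtl4, a retrotransposon-derived gene of the X chromosome, was 2.72 and 1.45 against 1.34 and 0.36, and was lower also in DCT_CNT (-0.55 and -0.62).

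Trabd2b was lower in hKLF6 OE in every cell type without AAI. It was 11.6 and 22.9 in the control mice and 4.77 and 13.7 in the hKLF6 OE mice, and its difference without AAI was -1.13 in DCT with a range from -1.13 to -0.25 in the other clusters. Dnah7b, a dynein gene with a near-identical paralog, and Malrd1 completed the 8 genes furthest lower in both treatments. The mice are of mixed strain, and differences between single mice in alleles near such genes cannot be told apart from the transgene.

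Maf led the genes higher in hKLF6 OE under both treatments. Maf, a leucine zipper factor, was 0.94 and 0.70 in the control mice and 2.27 and 2.20 in the hKLF6 OE mice, a difference of 0.75 and 0.92 against a median of 0.02 and 0.34 elsewhere. CNT had 0.72 and 1.10. Pax2, a kidney developmental factor, was 1.37 and 1.64 against 2.05 and 2.69, and Fmnl2, an actin nucleator, 1.02 and 1.48 against 1.78 and 2.40. For Fmnl2 with AAI no other cluster was higher by as much. Pck1 was 1.30 and 0.70 against 3.39 and 1.81, but DCT ranked 22nd of 23 clusters for this gluconeogenic enzyme of the proximal tubule, and it was higher in the other clusters by a median of 1.00 and 0.79. Spink1 was another proximal tubule transcript of this group, and Malat1, Plekha1 and Pi4k2b were the rest.

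Energy and translation genes were mostly higher in hKLF6 OE without AAI. With AAI ribosomal and mitochondrially encoded genes were more often lower than higher. Without AAI 32 of 59 oxidative phosphorylation genes were higher, 31 of 39 ribosomal protein genes and 10 of 11 mitochondrially encoded genes, beside 10.1% of all genes. With AAI 1 of 44, 0 of 27 and 0 of 11 were higher, and 5 of 44, 13 of 27 and 5 of 11 were lower, beside 6.78% and 12% of all genes. The median with AAI was -0.19 for ribosomal and -0.17 for mitochondrially encoded genes. For oxidative phosphorylation genes it was -0.01, and their share lower was near that of all genes. The medians of oxidative phosphorylation and of ribosomal genes without AAI were above 0 in all 22 other clusters as well. S100g, the calcium buffer calbindin-D9k, was 1.25, 0.99, 3.35 and 1.44, and Klk1, tissue kallikrein, was 2.31, 3.08, 5.02 and 3.22, so both were highest in that mouse. S100g was higher there in every cluster, by at least 0.61. Other kallikrein copies are near-identical to Klk1.

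Of the hormone and growth factor receptors, 2 were higher and 3 lower of 16 without AAI, and 1 was higher and 5 lower of 15 with it, beside 10.1% higher and 16.7% lower of all genes without AAI and 6.78% and 12% with it. Erbb4, a neuregulin receptor of the early DCT, was 11.6 and 15.2 in the control mice and 8.86 and 9.03 in the hKLF6 OE mice, a difference of -0.35 and -0.69. The mineralocorticoid receptor Nr3c2 was 13.7, 14.7, 12 and 12.1. None of the 5 Kruppel-like factors past the minimum was called in any of the 4 comparisons, with Klf12 at 5.99, 6.21, 5.22 and 5.73 the highest of them.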

How the data were processed

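Single-nucleus RNA sequencing (snRNA-seq) of kidney cortex was read from 1 deposited table of cluster averages. Reads were counted by the authors in Cell Ranger against a pre-mRNA version of mm10, and nuclei were filtered by gene number and mitochondrial share and clustered in Seurat. No doublet removal is described. The deposited signal values are linear means, over the nuclei of 1 cluster and 1 mouse, of counts scaled to 10000 per nucleus. The scale was read from the values, since no source used here names the function that made the table. Neither nuclei nor reads per column are given in it, so depth is unknown and no interval for counting error could be made. Averaging also means that more nuclei with a transcript and more transcript per nucleus cannot be told apart. The columns are numbered; cluster 5 was taken as DCT from the order of the 23 sheets of the study's marker table and checked on Slc12a3 and Trpm6.

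Of 19632 rows, 23 with date-like names were dropped, which left 19609 genes. Differences are of log2(value + 1), taken where the larger of both values reached 0.5, and a gene was called higher or lower from 0.2. A difference on this scale understates the change of low genes. Each condition has 1 mouse, so no test was made and every value describes these 4 mice. On simulated data of 19609 genes, 200 of 200 genes made 2-fold higher or lower with AAI in both genotypes were recovered, with 0 false calls among the others. That run checks the calculation only. It gives no rate of false calls for these data, since the spread between mice and the counting error are unknown. Members and the 31 gene lists were chosen with earlier results of these data known. Named genes are the members of those lists, the 20 genes furthest above the mean and the 10 furthest above the highest of the other 22 clusters by the smallest of the 4 mice, the gene lowest in DCT (up to 5 were allowed and 1 qualified), the 10 furthest higher and 10 furthest lower with AAI by the smaller of the genotypes, the 8 each way with genotype, and the 5 largest opposite AAI differences each way. Some of these genes are not reported here. Gene spans came from GENCODE M21 on GRCm38 and promoters from RefSeq on GRCm38.p6. Alternatives were a pseudocount of 0.1, no minimum, a minimum of 2, a threshold of 0.5, centring on the median, other references for identity, and protein-coding genes only; a rescaling without Malat1 and the 13 mitochondrially encoded genes was added after seeing the data. Python 3.11.15, numpy 2.4.6, pandas 2.3.3 and matplotlib 3.10.9 were used.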

Additional observations from a re-analysis of the deposited data

Results flagged for a closer look

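In 9 genes among those with the largest AAI differences of opposite sign in the control and the hKLF6 OE mice, the genotypes stood apart. The gap between the genotypes is the AAI difference in hKLF6 OE minus that in control mice, on the log2(value + 1) scale, and it was not tested, since each condition has 1 mouse. Among genes higher with AAI in control and lower in hKLF6 OE mice, the gap was -1.64 for Epb41l3, -0.74 for Fras1, -0.88 for Eef1a1 and -0.81 for Klk1. Eef1a1 is a translation elongation factor, and like Klk1 it was highest in the hKLF6 OE mouse without AAI. Among genes lower with AAI in control and higher in hKLF6 OE mice, the gap was 1.12 for Zkscan1, 1.01 for Arhgef3, 0.75 for Dync1i2, 1.2 for Gm26917 and 0.76 for Tsc22d1. Of these, Tsc22d1, a leucine zipper factor, and Dync1i2, a dynein chain, were highest in DCT of the 23 clusters by the mean of the mice.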

How the results depend on the processing

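The values below are counts of genes higher and lower in 4 comparisons, in the order AAI in control mice, AAI in hKLF6 OE mice, hKLF6 OE without AAI and hKLF6 OE with AAI, followed by the genes higher, lower and opposite for AAI in both genotypes and for genotype in both treatments. With a pseudocount of 0.1 they were 1361 and 955, 1756 and 979, 831 and 1384, and 722 and 1005, then 758, 392 and 298 for AAI and 109, 255 and 490 for genotype. With a minimum of 2 they were 289 and 123, 460 and 122, 93 and 263, and 87 and 138, then 189, 50 and 19 for AAI and 6, 38 and 54 for genotype. That minimum left 280 genes above the mean of the other clusters and moved the median span of all genes to 121 kb, with fewer genes past it. With a threshold of 0.5 the counts were 52 and 58, 88 and 167, 45 and 24, and 12 and 36, then 18, 33 and 1 for AAI and 3, 5 and 5 for genotype. Centring on the median gave 596 higher with AAI in hKLF6 OE mice, 401 lower in hKLF6 OE without AAI, 194 higher with AAI in both genotypes and 31 higher with genotype in both treatments. Rescaling without Malat1 and the mitochondrially encoded genes, chosen after seeing the data, gave 720 higher in hKLF6 OE without AAI, 498 higher with AAI, 281 lower with AAI in both genotypes and 56 higher with genotype in both treatments. Taking the mean of the 4 mice gave 753 identity genes above the mean and 71 above the highest of the other clusters. Beyond the settings themselves, the cause of these shifts was not tested. Of 248 differences of named genes, 72 moved with the pseudocount and 0 with centring, and none that was called changed sign under any alternative run. No paired analysis was possible because each group has 1 mouse, and no replicate could be left out. Depth is unknown, so how far counting error sets these values cannot be given.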

Other observations

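Some genes outside the naming rule were singled out after their values were seen. Pde10a, a cyclic nucleotide phosphodiesterase, was 9.59, 1.29, 6.51 and 8.27 in the control mouse, control with AAI, hKLF6 OE and hKLF6 OE with AAI, so the control mouse with AAI was low. Grin3a, a glutamate receptor subunit, was 2.01, 0.34, 0.84 and 0.48, highest in the control mouse. Other genes far above the mean of the other clusters included Prkd1, protein kinase D1, at 18.6, 32.1, 20.3 and 25.0, and Tox3 at 10.2, 7.79, 5.76 and 6.17, both ranked first by the mean of the mice.

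The remaining lists are given beside the shares of all genes, which were 18% higher and 12% lower with AAI in control mice and 26.2% and 16.2% in hKLF6 OE mice. Of 10 fatty acid oxidation genes, 1 was higher and 1 lower with AAI in control mice and 0 were higher and 3 lower in hKLF6 OE mice. Acadl, a mitochondrial acyl-CoA dehydrogenase, was 0.64, 0.82, 1.16 and 0.44. Of 7 circadian genes, 2 were higher and 1 lower in control mice and 0 were higher and 2 lower in hKLF6 OE mice, and Rora was 7.41, 6.85, 5.91 and 3.50. Of 24 splicing factors of the Srsf and Hnrnp families, 7 were higher and 0 lower with AAI in hKLF6 OE mice, near the share of all genes, and in control mice 1 was higher and 2 lower of 23. Hnrnph1 was 1.35, 1.52, 0.78 and 1.83. Of 6 claudin, cadherin and junction genes, 0 were higher and 1 lower in control mice and 1 was higher and 3 lower in hKLF6 OE mice.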
